A study of Mus musculus with 48 samples.

Results

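The 9 genes described here mark hepatic stellate cells, the pericytes of the liver sinusoid: *Lrat*, *Reln*, *Hand2*, *Dcn*, *Ecm1*, *Colec11*, *Hgf*, *Pdgfrb* and *Rgs5*. They were taken as a list by name, with earlier results of these data known but with no rule on measured values, and all 9 were found by symbol among the 46517 genes of the count table. Several of them are also expressed by the stroma of the iris.

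Stellate cells lie in the space of Disse between hepatocytes and the sinusoidal endothelium, where they store vitamin A as retinyl esters in lipid droplets. In an injured liver they can lose these droplets, take on a contractile phenotype and deposit collagen. They also signal to hepatocytes and to the vessel wall through secreted growth factors and matrix proteins.

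The study transplanted liver spheroids, built from mouse liver cells enriched for hepatocytes, into the anterior chamber of the eye. All samples carried the genotype label WT Albino on the strain C57BL/6N, and the methods describe adult mice of both sexes. The 16 samples were 3 in situ livers, 3 preparations of the hepatocyte-enriched fraction, 2 samples of in vitro spheroids, 3 naïve irises and 5 explants. The explants, numbered 1, 2, 4, 5 and 6, were engrafted spheroids taken 2 months post-tx with the iris around them. The hepatocytes were isolated by collagenase perfusion and cleaned by centrifugation through Percoll, steps that remove many non-parenchymal cells, and the spheroids were grown from such cells. The labels do not say which samples came from separate animals, so p-values measure only the spread between the samples.

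Each sample was sequenced in bulk as 3 technical libraries, and the summed counts ran from 2718518 to 6789648 per sample. In bulk samples fewer cells of a type and less RNA per cell cannot be told apart. Levels are given in TPM (a value per transcript length, scaled to the same total in every sample) before any correction for the iris, as mean ± SD. Unless a sentence says otherwise, a gene was called changed where edgeR's quasi-likelihood test on counts, between only the 2 groups compared, gave a Benjamini-Hochberg adjusted p under 0.05 over all genes tested and an absolute log2 fold change over 1.

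Transcripts typical of 1 tissue were also found at low levels in the others. The 10 eye markers under 1000 TPM in the naïve iris stood at a median of 1.54% of their iris level in the livers, 1.35% in the hepatocyte-enriched fraction and 1.13% in the spheroids. For the 4 pigment cell genes at 1000 TPM or more in the iris (*Pmel*, *Mlana*, *Tyrp1* and *Dct*) the medians were 5.95%, 5.97% and 5.41%. Hepatocyte markers in turn stood in the naïve irises at a median of 1.11% of their liver level for the 4 genes under 1000 TPM and at 5.70% for the 12 above it. These percentages are set beside the stellate cell genes below, and their part in the results was not tested.

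Promoters of 7 of the 9 genes were matched by symbol in RefSeq (build GRCm38.p6, 250 bases before to 50 bases after a start, 8 promoters in all). They are shown for 3 genes, each 5′ to 3′ on the strand of its gene: *Colec11*, which was high in the liver and near 0 in the iris, *Ecm1*, which was high in both, and *Hand2*, itself a transcription factor that binds E-boxes. Capitals mark the motifs searched on both strands: the E-box, spelled CANNTG, a form of it that is called Hand-type here and is spelled CATCTG, and the TATA box, spelled TATAAA. On the other strand the Hand-type form reads CAGATG, and each match to it is also counted as an E-box.
*Colec11*, chr12:28623281-28623580, minus strand: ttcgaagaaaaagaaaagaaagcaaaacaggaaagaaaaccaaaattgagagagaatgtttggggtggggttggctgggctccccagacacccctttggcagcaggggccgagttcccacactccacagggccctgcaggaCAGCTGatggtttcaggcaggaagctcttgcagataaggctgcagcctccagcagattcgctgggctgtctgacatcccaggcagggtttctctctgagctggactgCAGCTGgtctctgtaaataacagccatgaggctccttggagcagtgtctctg
*Ecm1*, chr3:95739520-95739819, minus strand: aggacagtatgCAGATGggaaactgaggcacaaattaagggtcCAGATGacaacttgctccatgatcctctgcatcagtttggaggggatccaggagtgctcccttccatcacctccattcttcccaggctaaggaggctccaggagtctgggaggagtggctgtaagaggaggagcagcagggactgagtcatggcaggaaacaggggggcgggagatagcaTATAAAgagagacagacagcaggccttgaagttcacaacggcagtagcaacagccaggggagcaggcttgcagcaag
*Hand2*, chr8:57320733-57321032, plus strand: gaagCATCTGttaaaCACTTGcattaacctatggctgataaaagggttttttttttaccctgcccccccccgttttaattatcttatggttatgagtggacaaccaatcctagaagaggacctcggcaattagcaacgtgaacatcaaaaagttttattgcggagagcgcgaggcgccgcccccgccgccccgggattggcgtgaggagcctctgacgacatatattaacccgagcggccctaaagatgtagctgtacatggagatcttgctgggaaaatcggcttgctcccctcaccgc
An E-box was present in 7 of the 8 promoters, against 72.3% of 32851 RefSeq promoters of this length. The Hand-type form was present in 2 of 8, those of *Ecm1* and *Hand2*, against 17.2% of all, and a TATA box in 1 of 8, that of *Ecm1*, against 13.6%. These matches describe letters in a window and show no binding.

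The genes are placed on mm10, the build of the submitters' processing notes. *Lrat* (ENSMUSG00000028003) lies on chromosome 3 from 82892579 to 82903973, *Reln* (ENSMUSG00000042453) on chromosome 5 from 21884454 to 22344702 and *Hand2* (ENSMUSG00000038193) on chromosome 8 from 57320983 to 57324517. *Dcn* (ENSMUSG00000019929) lies on chromosome 10 from 97479500 to 97518162, *Ecm1* (ENSMUSG00000028108) on chromosome 3 from 95734147 to 95739569, *Colec11* (ENSMUSG00000036655) on chromosome 12 from 28594173 to 28623290 and *Hgf* (ENSMUSG00000028864) on chromosome 5 from 16553495 to 16620152. *Pdgfrb* is ENSMUSG00000024620 on chromosome 18, and *Rgs5* (ENSMUSG00000026678) lies on chromosome 1 from 169655501 to 169695813. Reads were counted without regard to strand and once for each overlapping gene. *Hand2* shares 19.8% of its exon bases with the gene ENSMUSG00000100348, so reads from this stretch cannot be told apart, and *Hgf* shares 6.74% with *Gm43489*. *Ecm1*, *Reln* and their overlapping genes share under 3% of bases, and the other 5 genes share none.

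Across the 5 groups the genes fell into different patterns, drawn below for every sample. *Lrat*, *Colec11* and *Hand2* had their highest mean in the in situ liver. *Reln*, *Dcn*, *Hgf* and *Pdgfrb* had it in the naïve iris, and *Ecm1* and *Rgs5* in the explants. The hepatocyte-enriched fraction was below the liver in the mean of all 9 genes.

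**Figure D1:**
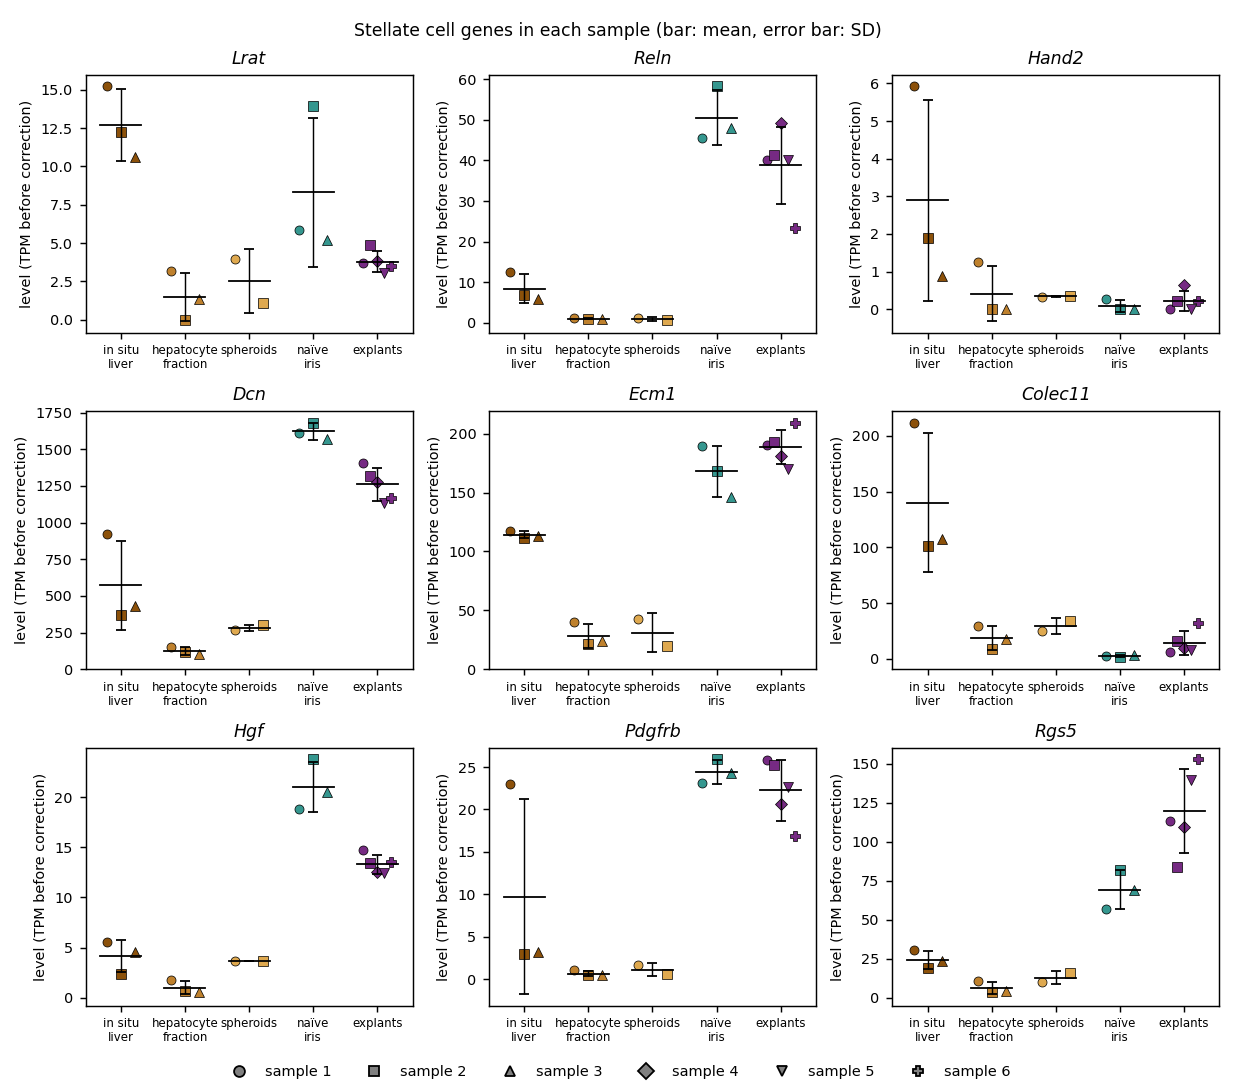
Level of each of the 9 genes in TPM before correction (y axis, a scale of its own in each panel) in every sample of the 5 groups (x axis); symbols give the sample number, bars the mean and error bars the SD. *Colec11* was 101 to 212 TPM in the livers and 1.39 to 3.51 TPM in the irises, whereas *Reln* was 6.00 to 12.5 TPM in the livers and 45.5 to 58.2 TPM in the irises.

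*Lrat* encodes lecithin retinol acyltransferase, the enzyme that esterifies retinol for storage and the classical marker of the quiescent stellate cell. It stood at 15.2, 12.2 and 10.6 TPM in livers 1 to 3, at 3.14, 0 and 1.34 TPM in the hepatocyte-enriched preparations and at 3.98 and 1.05 TPM in the spheroids. The irises had 5.83, 13.9 and 5.21 TPM and explants 1, 2, 4, 5 and 6 had 3.66, 4.88, 3.83, 3.04 and 3.48 TPM. Every liver was above every explant, hepatocyte preparation and spheroid sample. The irises overlapped the livers because of iris 2, and the explants overlapped the spheroids and the hepatocyte preparations.

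*Reln* encodes reelin, a large secreted glycoprotein that in the liver is a stellate cell product. It stood at 12.5, 6.85 and 6.00 TPM in the livers, at 1.15, 0.870 and 0.985 TPM in the hepatocyte preparations and at 1.28 and 0.644 TPM in the spheroids. In the irises it reached 45.5, 58.2 and 47.9 TPM, and in the explants 40.01, 41.3, 49.2, 40.2 and 23.3 TPM. The irises and the explants overlapped and were above all liver-derived samples, and explant 6 was the lowest explant. *Reln* in the hepatocyte fraction was 1.98% and in the spheroids 1.90% of its iris mean, next to the 1.35% and 1.13% of the eye markers.

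*Hand2* encodes a basic helix-loop-helix transcription factor found in stellate cells. It was near the limit of detection everywhere outside the liver: 28 counts fell on it in the 3 livers (19, 6 and 3), 4 in the hepatocyte preparations, 2 in the spheroids, 1 in the irises and 5 in the explants. Per count sequenced, the irises had 0.0277 of the liver level (95% exact interval 0.000678 to 0.168) and the explants 0.0664 (0.0200 to 0.174), intervals that cover counting error only. Against livers 2 and 3 alone, with 9 counts, these ratios were 0.0575 (0.00131 to 0.415) and 0.138 (0.0363 to 0.458). For the hepatocyte preparations the ratio was 0.168 (0.0427 to 0.479) against all livers and 0.348 (0.0783 to 1.25) against livers 2 and 3. The level of *Hand2* was 5.92, 1.89 and 0.885 TPM in the livers, so liver 1 held most of it. All 4 counts of the hepatocyte fraction were in preparation 1, at 1.25 TPM, above liver 3. *Hand2* did not pass the filter on low counts in any of the count comparisons.

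Of the secreted products, *Dcn* was by far the most abundant. It encodes decorin, a small proteoglycan that binds collagen fibrils. It stood at 919, 367 and 430 TPM in the livers, at 153, 114 and 107 TPM in the hepatocyte preparations and at 269 and 298 TPM in the spheroids. The irises had 1610, 1680 and 1571 TPM and the explants 1404, 1318, 1279, 1130 and 1167 TPM. No neighbouring groups overlapped, in the order iris, explant, liver, spheroid and hepatocyte fraction. The hepatocyte fraction had 7.68% and the spheroids 17.5% of the iris mean, and the 4 pigment cell genes of similar abundance had 4.45% to 8.86% and 3.72% to 7.09%. After the authors' removal of duplicates *Dcn* held a mean of 0.877 counts per base and library in the irises and 0.857 in the explants, but 0.277 in the livers; no gene of at least 500 bases exceeded 1.70 in any library.

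*Ecm1* encodes extracellular matrix protein 1, a secreted glycoprotein. It stood at 117, 112 and 113 TPM in the livers, a narrow range, and at 39.99, 21.4 and 23.9 TPM in the hepatocyte preparations and 42.5 and 19.5 TPM in the spheroids. The irises had 189, 169 and 146 TPM and the explants 190, 193, 181, 170 and 209 TPM. Explants and irises overlapped, as did hepatocyte preparations and spheroids, and the livers lay between these 2 pairs of groups.

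*Colec11*, which encodes the collectin CL-K1 of the lectin pathway of complement, followed the liver. It stood at 212, 101 and 107 TPM in the livers, at 29.9, 8.62 and 18.2 TPM in the hepatocyte preparations and at 24.7 and 34.3 TPM in the spheroids. The irises had only 2.17, 1.39 and 3.51 TPM, whereas the explants had 5.90, 16.3, 9.88, 8.05 and 32.2 TPM. Each explant was above each iris and below each liver. The iris mean was 1.68% of the liver mean, beside the 1.11% of the hepatocyte markers under 1000 TPM.

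*Hgf* encodes hepatocyte growth factor, a mitogen that stellate cells release for hepatocytes. It stood at 5.53, 2.35 and 4.59 TPM in the livers, 1.75, 0.663 and 0.626 TPM in the hepatocyte preparations and 3.70 TPM in both spheroid samples. The irises had 18.9, 23.8 and 20.5 TPM and the explants 14.8, 13.5, 12.6, 12.4 and 13.5 TPM. The explants lay apart from the irises and from the livers, and the spheroids lay within the range of the livers.

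The receptor gene *Pdgfrb*, for PDGF receptor beta on pericytes and stellate cells, stood at 23.02, 2.96 and 3.25 TPM in the livers. The hepatocyte preparations had 1.02, 0.435 and 0.492 TPM and the spheroids 1.67 and 0.588 TPM. The irises had 23.1, 25.9 and 24.3 TPM and the explants 25.8, 25.2, 20.7, 22.7 and 16.9 TPM. Liver 1 was thus at the level of the irises and explants, and livers 2 and 3 far below.

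*Rgs5* encodes a regulator of G-protein signalling expressed by pericytes. It stood at 30.3, 19.2 and 23.5 TPM in the livers, 10.8, 3.67 and 4.55 TPM in the hepatocyte preparations and 10.2 and 15.8 TPM in the spheroids. The irises had 57.0, 82.2 and 68.9 TPM and the explants 114, 83.7, 109, 139 and 153 TPM. Every explant was above every iris, and every iris above every liver.

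Liver 1 had the highest level of the 3 livers for all 9 genes, which held for 45.4% of the 16170 genes at 1 TPM or more in the liver mean. Its level relative to the mean of livers 2 and 3 ranged from 1.05 for *Ecm1* to 7.42 for *Pdgfrb*, with a median of 1.95 against 1.07 over those genes. Liver 1 was also the highest for 13 of 18 other quiescent stellate cell markers (median ratio 2.42), for 19 of 23 activation and myofibroblast genes (3.20) and for all 13 portal and capsular fibroblast markers at that level (3.89). The same held for all 10 macrophage markers (1.89) and 5 of 7 cholangiocyte markers (2.10), but for 0 of 7 Kupffer cell markers (0.370). The summed level of the portal and capsular fibroblast markers was 568 TPM in liver 1 and 190 and 228 TPM in livers 2 and 3. The part of these cell types in the stellate cell genes was not tested. Values without liver 1, which was singled out after its values were seen, are given beside the comparisons with the livers where they move a result.

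The first comparison asked what the isolation of hepatocytes left of the stellate cell genes. All 8 genes that could be tested were lower in the hepatocyte-enriched fraction than in the liver, and 5 were called: *Reln*, *Ecm1*, *Dcn*, *Colec11* and *Rgs5*. Over all genes 2.31% were called lower and 0.409% higher of 12236 tested (edgeR). Each of the 8 genes was lower in every hepatocyte preparation than in every liver, which held for 22.5% of genes tested. The median log2 fold change of the 8 genes was −2.39, against 0.01 over all genes.

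*Reln* fell by 2.92 ± 0.30 (log2 fold change ± SE, adjusted p = 0.00902) and *Ecm1* by 1.86 ± 0.21 (adjusted p = 0.0136). *Colec11* fell by 2.72 ± 0.42 and *Dcn* by 2.05 ± 0.32 (both adjusted p = 0.0310), and *Rgs5* by 1.78 ± 0.37 (adjusted p = 0.0430). The 3 genes that missed the threshold had log2 fold changes at least as large as that of *Rgs5*: −3.68 ± 0.95 for *Pdgfrb* (adjusted p = 0.0691), −2.89 ± 0.67 for *Lrat* (0.0537) and −1.85 ± 0.48 for *Hgf* (0.0703). Without liver 1 all 8 remained below 0, from −2.78 for *Lrat* to −1.58 for *Dcn*. *Pdgfrb* moved the most, to −2.10, and *Rgs5* was no longer called (−1.63, adjusted p = 0.0854), which left 4 calls. The number of calls rested on the samples: it was 7 without hepatocyte preparation 1, 2 without preparation 2, 0 without preparation 3, 1 without liver 2 and 4 without liver 3. DESeq2 called 7 of the 8 and limma-voom 1.

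Markers of several other non-parenchymal cells fell beside the stellate cell genes, with 3 of 5 cholangiocyte markers (median −2.99), 3 of 9 macrophage markers (−1.58), 3 of 10 general endothelial markers (−1.27) and 2 of 10 sinusoidal endothelial markers (−0.96) called lower and none higher. Of 7 Kupffer cell markers 0 were called (median −0.79). The part of these cells was not tested. Of 20 other markers of the quiescent stellate cell 16 could be tested, 11 were called lower and none higher, with a median log2 fold change of −2.82. The lowest were *Adamtsl2* (−4.99 ± 1.10, adjusted p = 0.0493) and *Gdf10* (−4.39 ± 0.91, adjusted p = 0.0435). Without liver 1 the count was 8 of 16, without liver 2 it was 1, and without hepatocyte preparation 2 or 3 it was 0. Portal and capsular fibroblast markers (2 of 8 lower, median −2.95) and smooth muscle and pericyte markers (3 of 8 lower, median −1.12) included *Dpt*, for the matrix protein dermatopontin, at −6.27 ± 1.30, and *Msln*, for the mesothelial protein mesothelin, at −6.20 ± 1.11. Of the activation and myofibroblast genes 6 of 14 were lower, among them the collagen genes *Col1a2* (−4.08 ± 0.78) and *Col3a1* (−3.10 ± 0.55). *Acta2*, the smooth muscle actin gene, did not pass the test and stood at 76.7 ± 1.23 TPM in the hepatocyte fraction and 79.9 ± 3.21 TPM in the liver. The smooth muscle and pericyte markers, which include *Acta2*, summed to 3698 to 3916 TPM in the irises. Their sum was 186 to 210 TPM in the livers and 136 to 154 TPM in the hepatocyte fraction. The part of transcripts from other tissues in the level of *Acta2* was not tested.

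**Figure D2:**
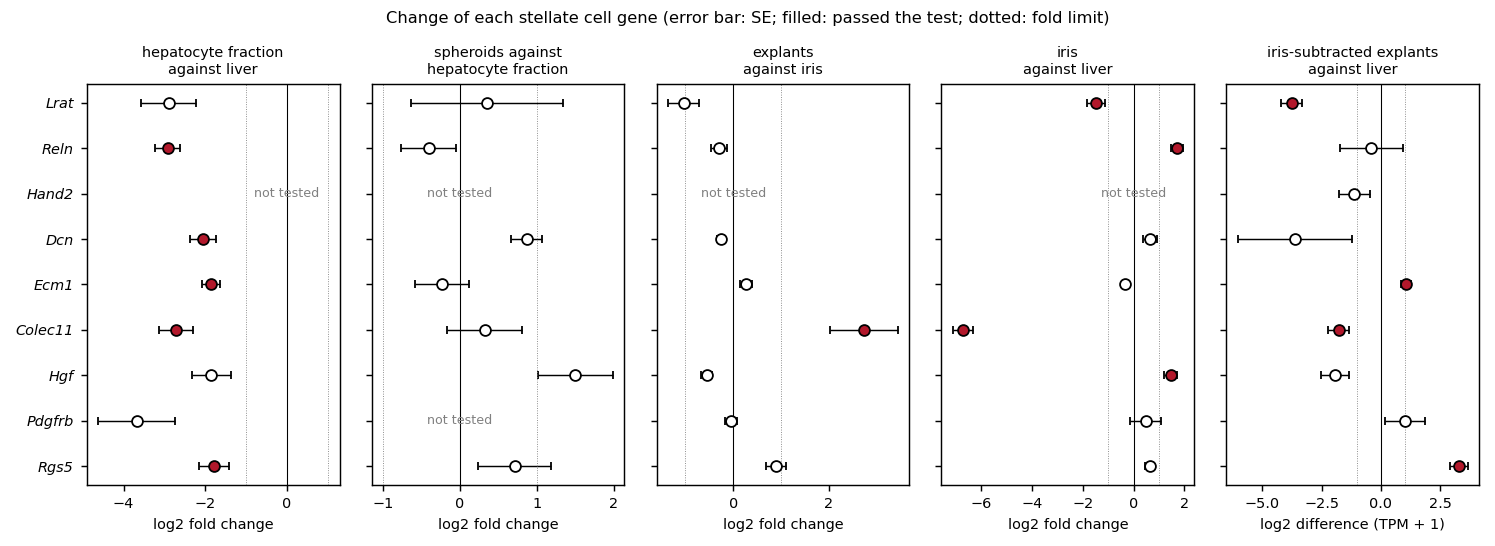
Log2 fold change of each of the 9 genes (x axis; for the right panel the log2 difference of TPM + 1) in 5 comparisons, with SE as error bars; filled points passed the test and dotted lines mark the fold limit. Of the genes tested, 5 of 8 were called lower in the hepatocyte fraction than in the liver, 0 of 7 changed in the spheroids and only *Colec11* was called in explants against irises.

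The second comparison asked whether the stellate cell genes moved during spheroid culture. None of the 7 genes tested was called with edgeR, while 8.13% of 12247 genes were called higher and 9.11% lower. At an unadjusted p under 0.05 there were 2 genes, *Dcn* and *Hgf*, both higher, against 19.5% of all genes higher and 20% lower. *Dcn* was higher in both spheroid samples than in any hepatocyte preparation (log2 fold change 0.87 ± 0.20, adjusted p = 0.0176, below the fold limit) and *Hgf* likewise (1.50 ± 0.49, adjusted p = 0.0574), as were 40.5% of all genes. Of the 7 genes limma-voom called 1, *Hgf*, and DESeq2 called 0. The other 5 genes overlapped between the groups, with values from −0.41 ± 0.36 for *Reln* to 0.71 ± 0.47 for *Rgs5*, and *Pdgfrb* and *Hand2* had too few counts. Scaling by library size alone put *Dcn* at 1.11 and *Hgf* at 1.75 and called both, and it moved the median of all genes from 0.01 to 0.27 and the share of calls that were higher from 47.2% to 65.5%. Without hepatocyte preparation 1 both genes were called, without spheroid sample 1 *Dcn* was called, and the lone spheroid sample was then assumed to vary like the other group.

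The other quiescent markers gave 0 calls among 11 tested with edgeR (median log2 fold change 0.50), and 1 called higher without spheroid sample 2. Of the activation and myofibroblast genes 5 of 15 tested were called higher and none lower, with a median of 1.08. Among these 15 genes 10 lay above 0 and 5 below it. *Acta2* was one of those below (−0.54 ± 0.17, adjusted p = 0.0494, under the fold limit). The difference between this list and the quiescent markers was not tested. Markers of other cells moved in both directions beside them. Of macrophage markers 5 of 10 were called higher (median 1.01), and of Kupffer cell markers 2 of 7 (0.82). Of the 16 portal and capsular fibroblast markers only 5 could be tested, and 3 were called higher (1.70). None of these markers was called lower, and 6 of the 16 fibroblast markers had no count in any spheroid sample. Of 9 sinusoidal endothelial markers 3 were called lower and 1 higher (median −0.92). Of 8 general endothelial markers 2 were lower and 1 higher (0.03), and of 8 smooth muscle and pericyte markers 1 each way (0.09). Their part was not tested. The calls among the activation and myofibroblast genes were led by *Lox*, a collagen cross-linking enzyme (5.14 ± 1.23, adjusted p = 0.0207), and *Ccn2*, a matricellular growth factor (3.96 ± 0.46, adjusted p = 0.00132). For *Lox* the SD over the 2 spheroid samples was larger than their mean, on counts scaled by library size. *Ccn2* stood at 3.99 TPM in the hepatocyte fraction and at 80.9 TPM in the spheroids, where the lower sample had 37.4 TPM. Leaving out any of the 5 samples gave 4 to 6 calls. Among partners of the stellate cell genes the PDGF ligand gene *Pdgfa* (1.47 ± 0.36, adjusted p = 0.0233), the reelin receptor gene *Vldlr* (2.24 ± 0.48, adjusted p = 0.0133) and the protease gene *St14* (4.86 ± 0.94, adjusted p = 0.00910) were called higher. *Masp2*, a lectin pathway protease gene, was called lower (−1.19 ± 0.22, adjusted p = 0.00694).

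The third comparison set the iris against the liver, since iris tissue is part of every explant. *Reln* (log2 fold change 1.71 ± 0.23, adjusted p = 0.000150) and *Hgf* (1.46 ± 0.25, adjusted p = 0.000649) were called higher in the iris. *Colec11* (−6.71 ± 0.40, adjusted p = 6.9e-07) and *Lrat* (−1.49 ± 0.36, adjusted p = 0.00446) were called lower. Of all 15459 genes 29.8% were called higher and 22.1% lower, so that calls of single genes were common here. The remaining genes stayed under the fold limit: *Dcn* at 0.64 ± 0.27, *Rgs5* at 0.63 ± 0.17, *Pdgfrb* at 0.48 ± 0.61 and *Ecm1* at −0.33 ± 0.12.

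These values depended on the scaling. With TMM the median of all genes was 0.11 and 57.4% of the calls were higher, and with library size alone these were 0.80 and 77.5%. *Ecm1* changed sign with library size alone (0.35, adjusted p = 0.0178), *Lrat* was no longer called (−0.82, adjusted p = 0.0654), and *Dcn* (1.30) and *Rgs5* (1.31) were called higher. Without liver 1, *Pdgfrb* (2.02, adjusted p = 4.3e-06) and *Dcn* (1.07, adjusted p = 1.5e-06) were called higher in the iris, which made 6 calls. In an alternative chosen after seeing the data, counts were raised as though duplicate removal had kept at most 2 reads starting at any base, and *Dcn* then stood at 0.90 (adjusted p = 0.0215).

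The 20 other quiescent markers were split between the tissues, with 10 called lower in the iris and 5 higher, and a median of −1.21. *Gdf2*, for the ligand BMP9, had no count in any iris and 32.98 TPM in the liver mean, and the collectin gene *Colec10* fell by 8.10 ± 0.99. *Hhip*, an inhibitor of hedgehog ligands (4.74 ± 0.27), and the transcription factor gene *Lhx2* (4.19 ± 0.34) were higher in the iris. *Tcf21*, which encodes a mesenchymal transcription factor, had 47.6 TPM in the liver and 0.515 TPM in the iris and was called lower. Activation and myofibroblast genes were called higher in 18 of 24 cases and lower in none (median 2.25), led by the smooth muscle genes *Cnn1* (5.35 ± 0.31) and *Myl9* (3.57 ± 0.11). This list shares *Cnn1*, *Acta2* and *Tagln* with the smooth muscle and pericyte markers. Of those 14 markers 13 were called higher and 1 lower (median 3.51). Of 15 portal and capsular fibroblast markers 9 were called higher and 3 lower (1.62). The part of muscle cells and fibroblasts was not tested. Partners also differed: of 5 PDGF ligand and receptor genes 4 were higher in the iris, led by *Pdgfd* (2.95 ± 0.22), and all 3 reelin pathway genes were, led by the receptor gene *Lrp8* (4.37 ± 0.53). The lectin pathway genes *Colec10* and *Masp1* (−6.54 ± 0.26) were lower.

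**Figure D3:**
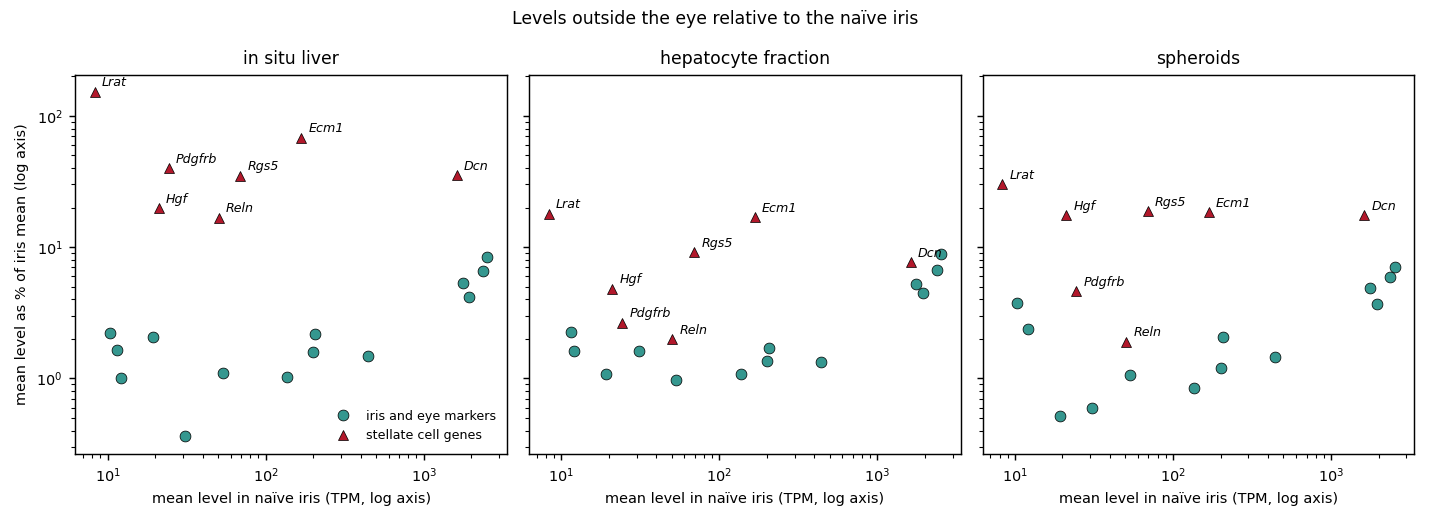
Mean level in livers, hepatocyte-enriched fraction and spheroids as a percentage of the mean in the naïve iris (y axis, log scale) against the iris level in TPM (x axis, log scale), for the 14 iris and eye markers (circles) and 7 of the stellate cell genes (triangles); *Colec11* and *Hand2*, at under 3 TPM in the iris, and markers at 0 are not drawn. In the hepatocyte fraction *Reln* (1.98%), *Pdgfrb* (2.66%) and *Dcn* (7.68%) lay near or among the eye markers, and *Ecm1* (16.9%) and *Lrat* (17.97%) above them.

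The fourth comparison asked how explants differed from naïve irises. Of 8 genes tested only *Colec11* was called, higher in the explants by 2.73 ± 0.71 (log2 fold change, adjusted p = 0.0364), while 6.16% of 16764 genes were called higher and 0.316% lower. *Rgs5* was higher in every explant than in every iris but stayed under the fold limit (0.89 ± 0.21, adjusted p = 0.0248). *Hgf* (−0.56 ± 0.11, adjusted p = 0.0125) and *Dcn* (−0.27 ± 0.07, adjusted p = 0.0374) were lower in every explant than in every iris, likewise under the limit. *Lrat* was also lower in each explant than in each iris (−1.04 ± 0.33, adjusted p = 0.0711). Over all genes 11.2% were higher and 14.1% lower in every explant than in every iris. *Reln* (−0.30 ± 0.17), *Ecm1* (0.27 ± 0.12) and *Pdgfrb* (−0.04 ± 0.12) overlapped between the groups. The call of *Colec11* rested on 93 counts in explant 6 and 15 to 44 in the others, against 3 to 8 in each iris. It was lost with limma-voom (2.38, adjusted p = 0.129) and when explant 2 (2.68, adjusted p = 0.0686), iris 1 (2.64, 0.133), iris 2 (2.46, 0.136) or iris 3 (3.12, 0.0960) was left out.

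Among the 17 other quiescent markers tested, 1 was called higher, *Tcf21* (4.36 ± 1.03, adjusted p = 0.0249), at 10.5 TPM in the explants and 0.515 TPM in the irises, and none lower (median 0.17). *Dpt* was the only portal or capsular fibroblast marker called of 14 (4.88 ± 1.05, adjusted p = 0.0168). In the same comparison 15 of 16 hepatocyte markers were called higher, led by *Apob* and *Cps1*, and none of the 14 smooth muscle and pericyte markers was called. Markers of other liver and immune cells were also called higher: 6 of 10 macrophage, 3 of 8 cholangiocyte, 2 of 8 sinusoidal endothelial and 2 of 3 Kupffer cell markers. Their part in the stellate cell genes was not tested. Partners made outside the stellate cell were higher in the explants: *Hgfac*, an activator of HGF made by hepatocytes (5.38 ± 0.56, adjusted p = 0.000515), the protease gene *Hpn* (4.08 ± 0.43, adjusted p = 0.000519) and the lectin pathway protease genes *Masp1* (3.25 ± 0.57, adjusted p = 0.00708) and *Masp2* (2.55 ± 0.40, adjusted p = 0.00404). *Met*, the HGF receptor gene, stood at 53.3 TPM in the explants and 51.8 TPM in the irises and did not pass the test.

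For the liver part of the explants, the authors had subtracted an iris share from each explant. The shares solved from the deposited tables were 82%, 68%, 81%, 72% and 59% for explants 1, 2, 4, 5 and 6. Multiplying the share by the iris mean gives the level that the iris alone would account for. Over the 5 explants *Lrat* was below this level in each, at 0.508 to 0.862 of it, and *Hgf* in 4, at 0.737 to 1.09. The place of *Lrat* rested on iris 2: with the mean of irises 1 and 3 explants 2 (1.30) and 6 (1.07) lay above the iris part, an alternative added after seeing the data. *Dcn* was close to it (0.968 to 1.22), as was *Reln* (0.780 to 1.20), and *Pdgfrb* was above it in each (1.04 to 1.52). *Ecm1* (1.33 to 2.11), *Rgs5* (1.78 to 3.73) and *Colec11* (3.05 to 23.1) exceeded it in all 5.

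A second reference added the remaining share at the mean liver level. Against this mixture *Rgs5* was still above 1 in every explant (1.52 to 3.00) and *Ecm1* too (1.11 to 1.44). *Colec11* was below it in each (0.197 to 0.547), with explant 6, which had the smallest iris share, the highest. *Lrat* was at 0.319 to 0.502, and *Hgf* at 0.704 to 0.956. *Dcn*, *Reln* and *Pdgfrb* lay on both sides of 1. Without liver 1 *Pdgfrb* was above 1 in all 5 explants (1.01 to 1.43), without liver 2 *Dcn* was below 1 in all 5 (0.833 to 1.00), and without iris 2 *Hgf* reached 1.01 in 1 explant. The mixture assumes that the iris in an explant expresses these genes as the naïve iris does, which was not tested.

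**Figure D4:**
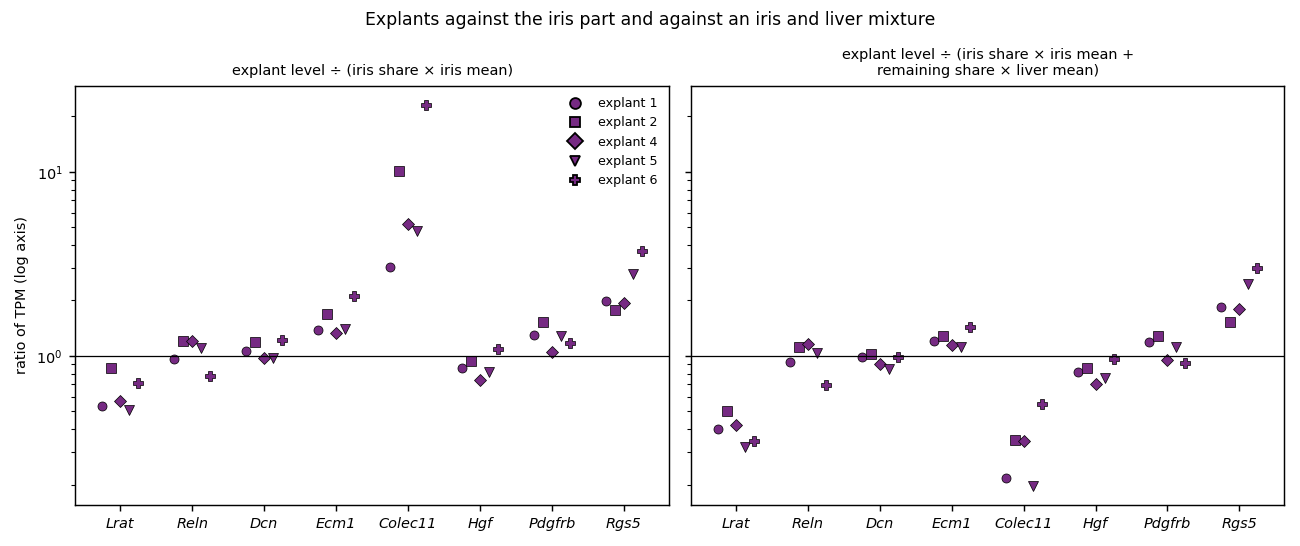
TPM of each explant divided by the iris share times the iris mean (left) and by that plus the remaining share times the liver mean (right), on a log axis for 8 of the genes (x axis); symbols give the explant and the line marks 1. On the right *Rgs5* and *Ecm1* lay above 1 and *Lrat*, *Colec11* and *Hgf* below it in all 5 explants.

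After the subtraction the explants could be set against the livers, with limma on log2(TPM + 1) over 22878 genes, on which scale a difference understates that of low genes. Of the 9 genes *Rgs5* (log2 difference 3.30 ± 0.37, adjusted p = 0.00117) and *Ecm1* (1.07 ± 0.21, adjusted p = 0.0111) were called higher. *Lrat* (adjusted p = 0.00148) and *Colec11* (−1.79 ± 0.46, adjusted p = 0.0319) were called lower. Over all genes 10.5% were called higher and 2.82% lower, and the median difference was 0.59. *Rgs5* stood at 315, 114, 280, 320 and 272 TPM in explants 1, 2, 4, 5 and 6 after subtraction, against 24.3 ± 5.62 TPM in the livers. *Ecm1* stood at 291, 246, 236, 174 and 269 TPM, against 114 ± 3.02 TPM. *Colec11* stood at 22.1, 45.9, 41.9, 22.7 and 75.0 TPM against 140 ± 62.2 TPM, and no explant reached the lowest liver.

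*Lrat* was at 0 in all 5 explants after subtraction. This is the floor of the subtraction, since values below 0 were set to 0, so its test and permutation p contain no spread between explants. With iris 2 left out of the subtracted mean it was at 3.50 TPM in explant 2 and 0.552 TPM in explant 6 and remained called (adjusted p = 0.0114). *Hgf* was at 0 in 4 of 5, with 2.65 TPM in explant 6 (−1.94 ± 0.61, adjusted p = 0.0665). For *Dcn* the subtraction left 418, 673, 0, 0 and 515 TPM, for *Reln* 0, 21.6, 43.7, 13.4 and 0 TPM, and for *Pdgfrb* 32.3, 26.9, 4.66, 18.2 and 6.16 TPM. These 3 genes varied over a wider range in the explants than in the livers and passed no test, with differences of −3.62 ± 2.42, −0.41 ± 1.33 and 1.01 ± 0.83. *Hand2* was also not called (−1.12 ± 0.66, adjusted p = 0.296) on at most 3 counts per explant. An exact two-sided permutation test of each gene over the 56 splits gave p = 0.0179, the smallest it can give, for *Rgs5*, *Ecm1*, *Lrat* and *Colec11*, p = 0.0357 for *Hgf* and p = 0.143 to p = 0.786 for the other 4, all unadjusted.

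Without the subtraction the picture changed: *Reln* (2.10), *Dcn* (1.25), *Hgf* (1.53) and *Pdgfrb* (1.64) were called higher in the explants than in the livers, and *Ecm1* (0.72) fell under the fold limit. The call of *Colec11* was lost with the corrected values as deposited (−1.78, adjusted p = 0.0871), and when explant 1 (adjusted p = 0.0507), explant 5 (0.0602), liver 1 (−1.45, 0.140), liver 2 (0.0847) or liver 3 (0.0953) was left out. That of *Ecm1* was lost with the deposited values (0.73, adjusted p = 0.402), and when explant 1 (1.00, adjusted p = 0.0178), iris 3 (0.85, adjusted p = 0.0342), liver 2 (0.0575) or liver 3 (0.0574) was left out. *Rgs5* and *Lrat* were called in each of these fits except with the replicate number as a block.

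The other quiescent markers had 1 call higher and 3 lower among 20 (median −0.43). *Des*, for the muscle-type intermediate filament desmin, was higher (3.83 ± 0.40, adjusted p = 0.000901), and *Gdf2* (−3.37 ± 0.76, adjusted p = 0.0193) and *Vipr1* (−3.09 ± 0.58, adjusted p = 0.00953) led those that were lower. Without liver 2 or liver 3 none of them was called lower. Of the 24 activation and myofibroblast genes 15 were called higher and none lower, with a median of 2.82, among them the collagen cross-linking enzyme gene *Loxl1* (5.12 ± 0.49, adjusted p = 0.000659). Leaving out liver 2 or liver 3 gave 10 calls, and the other samples 13 to 17. Markers of other cells moved here as well: 8 of 10 macrophage markers, 6 of 14 smooth muscle and pericyte markers, 5 of 16 portal and capsular fibroblast markers and 3 of 13 iris and eye markers were called higher. Among these eye markers was *Pax6*. Called lower were 4 of 10 sinusoidal endothelial markers (median −1.91) and 1 of 7 Kupffer cell markers (−1.64), with none higher. The part of these cells in the levels of *Rgs5* and *Ecm1* was not tested.

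**Figure D5:**
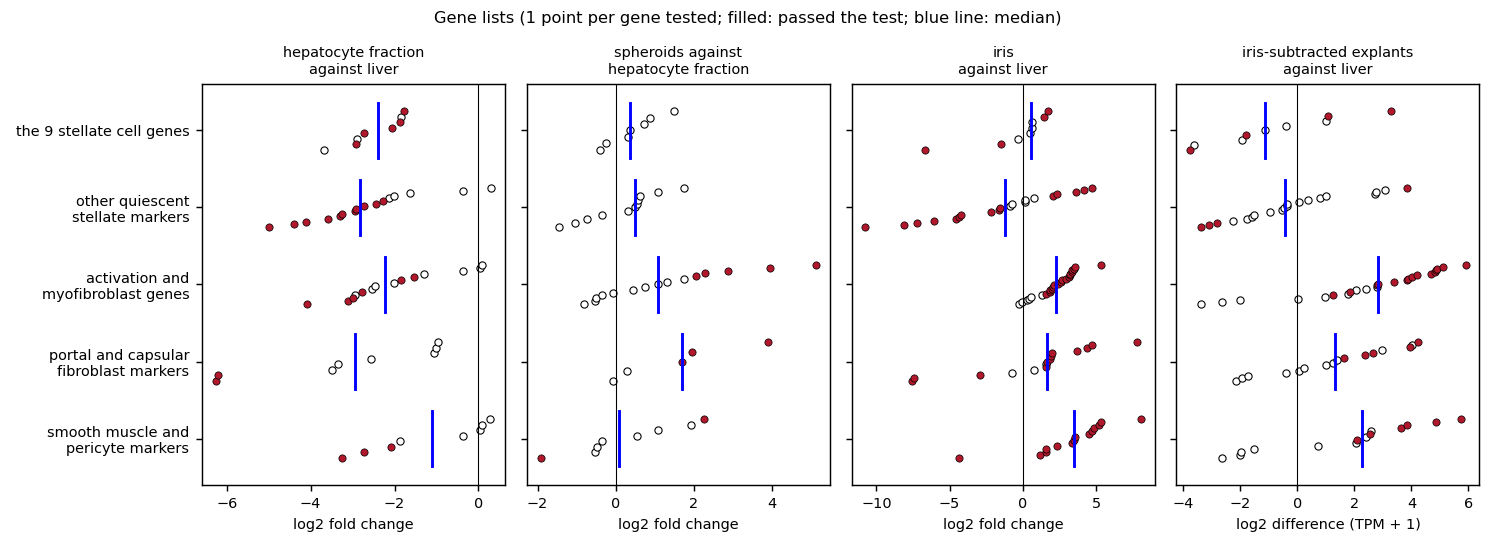
Log2 fold change (x axis; for the right panel the log2 difference of TPM + 1) of every gene tested in 5 gene lists, 1 point per gene, for 4 comparisons; filled points passed the test and the blue line is the median. Among activation and myofibroblast genes 6 of 14 were lower in the hepatocyte fraction than in the liver, 5 of 15 higher in the spheroids than in the hepatocyte fraction and 18 of 24 higher in the iris than in the liver.

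Retinoid genes were described beside *Lrat*. In the spheroids 4 of 17 were lower than in the hepatocyte fraction, led by the retinoic acid hydroxylase gene *Cyp26a1* (−3.14 ± 0.82, adjusted p = 0.0277) and the retinaldehyde reductase gene *Dhrs3* (−1.49 ± 0.23, adjusted p = 0.00355). Of 23 retinoid genes 8 were higher and 9 lower in the iris than in the liver, beside 29.8% and 22.1% of all genes, with *Rpe65*, the visual cycle isomerase (6.83 ± 1.04), and *Crabp1*, a retinoic acid-binding protein listed at 0 counts in the livers, the highest. In the explants *Rbp4* (2.66 ± 0.23, adjusted p = 0.000291), the retinol carrier secreted by hepatocytes, and *Cyp26a1* (2.21 ± 0.35, adjusted p = 0.00434) were higher than in the iris.

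For each gene the closest patterns over the 16 samples were sought by the Pearson correlation of log2(TPM + 1), as a description, since the samples share 5 groups. *Pdgfrb* was followed most closely by *Cygb*, for the stellate cell globin (r = 0.99), *Cpxm1* and *Nipbl*, and *Reln* by *Rbms3* (r = 0.99), *Arvcf* and *Pde3a*. *Dcn* was followed by *Lsp1* (r = 0.99), *Ppic* and the collagen gene *Col6a1*, *Ecm1* by *Eva1b* (r = 0.98), *Igfbp7* and *Fyn*, and *Rgs5* by *Adgrg1* (r = 0.98), *Cotl1* and *Cmtm3*. *Hgf* went with *Psap* (r = 0.99), *Snhg18* and *Nr2c2*. The genes of the liver pattern had looser neighbours: *Colec11* had *Dsg1c* (r = 0.94), *Sdc1* and *Ogfod2*, *Lrat* had *BC005537* (r = 0.92), *Kdm7a* and *2510039O18Rik*, and *Hand2*, on its few counts, *Igkv15-103* (r = 0.91), *Fhip2a* and *Adra2b*.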

How the data were processed

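The authors prepared bulk RNA by Smart-seq3, aligned reads with TopHat2 (mm10), removed duplicates with UMI-tools and SAMtools, and counted genes with featureCounts 1.4.6-p5. The deposited counts are unnormalized, and the deposited sample counts equal the sums of the 3 technical libraries in 100% of values. The deposited TPM were checked against a recalculation from these counts. The corrected explant values, deposited as a signal in TPM-like units, have an iris share subtracted; that of explant 4 matched the formula of the methods in 26.9% of genes, so the formula was applied here to all 5, with values below 0 set to 0. A table of counts per library without gene names was not used, since the same counts were read per library.

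Members and gene lists were chosen with earlier results of these data known. Named from a list in a comparison were at most the 2 highest and 2 lowest calls, and the 3 genes of closest pattern; *Acta2*, *Met* and, in irises against livers, *Tcf21* were chosen after their values were seen. Some genes of the lists are not reported here. Differences in counts were assessed by edgeR 4.0.16 after TMM scaling and filterByExpr, subtracted TPM with limma 3.58.1 (trend, pseudocount 1, at least 1 TPM in either group mean). Alternatives were DESeq2 1.42.0, limma-voom, other scalings, filters and pseudocounts, the replicate block and samples left out; the count and TPM tests were checked on simulated data. Depth of 2718518 to 6789648 counts per sample limits genes with few counts, and intervals cover counting error only.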

Additional observations from a re-analysis of the deposited data

How the results depend on the processing

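Of the values of single genes with a sample left out, 247 kept direction and call, 9 gained a call, 27 lost it and 10 changed sign; under other settings these numbers were 307, 30, 14 and 6. For hepatocytes against livers, calls among the stellate cell genes were 1 with limma-voom and 8 both with no filter and in a single fit of all groups, and 0 to 7 with a sample left out. Calls over all genes were 647 with DESeq2, 20 with limma-voom, 1205 with no filter and 872 in the single fit, and 8 to 448 with a sample left out. For spheroids against hepatocytes, calls were 1 with no fold limit, with limma-voom, with no filter and in the single fit, 2 with library size alone, and 0 to 2 with a sample left out. For explants against irises, calls were 4 with no fold limit, 2 with DESeq2 and with library size alone, 0 with limma-voom, and 0 to 1 with a sample left out; over all genes they were 1975 with no fold limit, 583 with limma-voom and 583 to 1259 with a sample left out. For irises against livers, 4 to 6 genes were called with a sample left out. For subtracted explants against livers, calls were 8 before subtraction and 2 with the values as deposited, and 2 to 5 with a sample left out; over all genes they were 10229, 1435 and 1079 to 3969. The cause of these shifts was not tested.

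Signs changed for *Ecm1* with library size alone, to 0.0488 in spheroids against hepatocytes and to 0.35 in irises against livers, and before subtraction for *Reln* (2.10), *Dcn* (1.25) and *Hgf* (1.53). With a sample left out, log2 fold changes in spheroids against hepatocytes ran from −0.73 to 0.93 for *Lrat*, −0.0703 to 0.83 for *Colec11* and −0.76 to 0.13 for *Ecm1*. They ran from −0.11 to 0.00276 for *Pdgfrb* in explants against irises and from −1.09 to 0.60 for *Reln* after subtraction, where irises were also left out of the subtracted mean, as an alternative chosen after seeing the data. Where an arm kept 1 sample, it was assumed to vary like the other group.

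Correlations of same-numbered deviations from the group means ran from −0.113 to 0.0746, and those of differently numbered samples from −0.153 to 0.119. With so few samples per group this check cannot show whether replicate numbers pair the samples. With the replicate number as a block, 7 stellate cell genes were called in hepatocytes against livers, 0 in explants against irises, where *Pdgfrb* went to 0.14, and 0 after subtraction, where 0 of all genes were called, a fit in which samples without a same-numbered partner add nothing. Genes with few counts, *Hand2* above all, are limited by depth.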
